A study of Mus musculus with 24 samples.

Results

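Ribosome-associated RNA pulled down from the spinal cord of wild-type mice was compared between animals with and without Cre recombinase in cholinergic cells. The comparison took 12 of the 24 libraries of the series, chosen by their source labels: 6 marked as wild type, with ChAT-Cre, and 6 marked as their negative controls, without Cre. The animals were 8 weeks old, on the background B6.CgxB6.129. The labelled genotypes were Rpl+/-;Chat+/-;C201R+/+ with Cre and Rpl+/-;Chat+/+;C201R+/+ without it, so every animal carried 1 RiboTag allele of Rpl22 and 2 normal copies of Gars, and the groups differed in the Cre allele at Chat. The other 12 libraries came from heterozygous Gars C201R mice, again 6 with Cre and 6 without. Each library is named by its mouse number.

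In the RiboTag method, Cre exchanges the last exon of the ribosomal protein gene Rpl22 for a copy with an HA tag, and an antibody against HA then brings down tagged ribosomes with the mRNA they carry. Choline acetyltransferase, the product of Chat, marks every cell that uses acetylcholine. In the spinal cord these are the alpha and gamma motor neurons that drive muscle and its spindles, the visceral motor neurons of the autonomic columns, and small groups of cholinergic interneurons, so the enriched material is not from motor neurons alone. A pulldown without Cre holds RNA that came down without tagged ribosomes. It is not an input sample, and a change given here is relative to that background. In bulk material of this kind, more or fewer cells of a type and more or less RNA per cell cannot be told apart.

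The 4 genes that mark cholinergic neurons were Chat, the choline transporter Slc5a7, the motor neuron surface lectin Chodl and the intermediate filament Prph. Their upstream sequences are shown because these are the genes on which the check of the labels rests. Each is the stretch of 250 bases before the RefSeq transcription start (GRCm38.p6, matched by symbol for 4 of 4 genes), read 5′ to 3′ on the strand of the gene. They lie at chr14:32465910-32466159 (minus strand) for Chat, chr17:54299035-54299284 (minus) for Slc5a7, chr16:78930698-78930947 (plus) for Chodl and chr15:99054924-99055173 (plus) for Prph. Capitals mark a TATA box searched as TATAAA or a CCAAT box searched as CCAAT, on both strands. Matches on opposite strands can overlap, which did not occur in these 4 sequences. The start sites are those of RefSeq and were not measured here.
Chat: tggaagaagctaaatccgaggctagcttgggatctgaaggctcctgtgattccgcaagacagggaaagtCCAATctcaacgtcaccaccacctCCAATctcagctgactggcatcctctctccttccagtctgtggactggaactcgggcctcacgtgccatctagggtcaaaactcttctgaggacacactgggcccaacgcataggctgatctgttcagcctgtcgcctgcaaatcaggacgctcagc
Slc5a7: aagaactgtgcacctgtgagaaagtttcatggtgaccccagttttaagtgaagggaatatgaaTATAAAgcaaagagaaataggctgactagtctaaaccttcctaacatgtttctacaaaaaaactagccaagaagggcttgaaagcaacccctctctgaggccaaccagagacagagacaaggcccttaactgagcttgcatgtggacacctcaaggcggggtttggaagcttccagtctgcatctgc
Chodl: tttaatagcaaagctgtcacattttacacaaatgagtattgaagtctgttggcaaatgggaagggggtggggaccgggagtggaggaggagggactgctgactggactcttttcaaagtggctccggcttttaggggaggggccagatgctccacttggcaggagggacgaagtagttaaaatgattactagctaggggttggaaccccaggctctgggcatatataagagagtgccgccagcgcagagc
Prph: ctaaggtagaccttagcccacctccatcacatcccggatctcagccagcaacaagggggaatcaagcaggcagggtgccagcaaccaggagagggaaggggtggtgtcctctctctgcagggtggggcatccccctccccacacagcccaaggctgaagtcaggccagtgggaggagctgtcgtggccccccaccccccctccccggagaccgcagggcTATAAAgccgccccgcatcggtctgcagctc

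The 4 upstream sequences did not hold the same exact motif. TATAAA stood 31 bases before the start in Prph and 187 bases before it in Slc5a7, and CCAAT stood 181 and 157 bases before it in Chat. Neither exact match was found in Chodl. Near the end of its sequence stand the letters tatataa, which the search for TATAAA did not cover, so a TATA box there is not excluded. Of 32851 RefSeq promoters read over the same length, 12.4% held TATAAA and 33.8% held CCAAT. GC content was 54.8% in Chat, 45.6% in Slc5a7, 52.0% in Chodl and 65.2% in Prph, beside a median of 52.4% over all promoters. A match of letters is a description and not a measured site.

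Libraries with Cre held 13.5 to 28.3 M expected counts and libraries without Cre 9.14 to 13.4 M, where M is 1000000 counts. Mitochondrial transcripts took 42.1 to 55.5% of counts without Cre and 1.24 to 17.1% with it. The highest share with Cre belonged to mouse 14701-9, and the other 5 reached at most 3.67%. In that library the ribosomal RNA model Gm26924 took 30.8% of counts, against 7.45 to 11.9% in the other 5 with Cre. Without Cre, mouse 14702-6 had the highest summed level of motor neuron markers, mouse 14702-5 the lowest total and mouse 14004-4 the highest summed level of microglia markers. The 6 libraries without Cre also fell into sets of 2 and 4. Counts of mice 14702-4 and 14702-6 differed from those of the other 4 by a chi-square per gene of 207 to 234, against 50.9 between these 2 and 27.3 to 54.5 among the other 4. The predicted genes Gm26870, Gm26905, Gm10800, Gm17131 and Gm21897, named after their values were seen, together took 12.9 to 16.2% of counts in the 4, 0.898% and 1.02% in the 2, 0.262 to 1.12% in 5 libraries with Cre and 6.17% in mouse 14701-9. What part this split had in the changes was not tested. Counts of calls without mouse 14701-9, without the 4 libraries named above and without mice 14702-4 and 14702-6 follow below for all genes and, after the gene groups, for the groups they moved most. CPM below is the count per 1000000 of the library total after TMM scaling, and log2 changes are with Cre over without, followed by their standard error (SE).

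All 4 markers of cholinergic neurons were higher with Cre, and in each of the 12 libraries their levels matched the label. Chat, which makes acetylcholine, stood at 51.8 to 63.6 CPM (median 60.01) with Cre and 2.02 to 10.03 CPM (median 4.7) without, a log2 change of 3.59 ± 0.32 (12-fold, adjusted p = 1.93e-07). Slc5a7, which takes choline back into the terminal, stood at 178 to 597 CPM (median 474) against 23.5 to 92.4 CPM (median 36.9), a change of 3.42 ± 0.29 (10.7-fold, adjusted p = 1.47e-07). Neither gene had a library without Cre that reached the lowest library with Cre, and mouse 14701-9 was the low Slc5a7 library. Chodl, a marker of fast motor units, stood at 252 to 484 CPM (median 449) against 10.2 to 64.5 CPM (median 23.9), a change of 4.05 ± 0.42 (16.5-fold, adjusted p = 4.82e-06). Prph, the neurofilament partner of peripheral axons, stood at 261 to 321 CPM (median 277) against 8.41 to 83.6 CPM (median 18.8), a change of 3.37 ± 0.55 (10.3-fold, adjusted p = 3.71e-04). The groups did not overlap for these genes either, and the highest Prph library without Cre was mouse 14702-6. Without the 4 libraries that stood apart, the changes were 4.04 for Chat, 3.89 for Slc5a7, 4.7 for Chodl and 4.05 for Prph. Without mice 14702-4 and 14702-6 they were 3.54, 3.80, 4.4 and 3.98 in the same order. Mice 14701-9 and 14702-6 had been picked out partly by their Chodl, Prph and motor neuron marker levels. The refit without the 4 libraries is therefore no separate support for these changes.

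**Figure D1:**
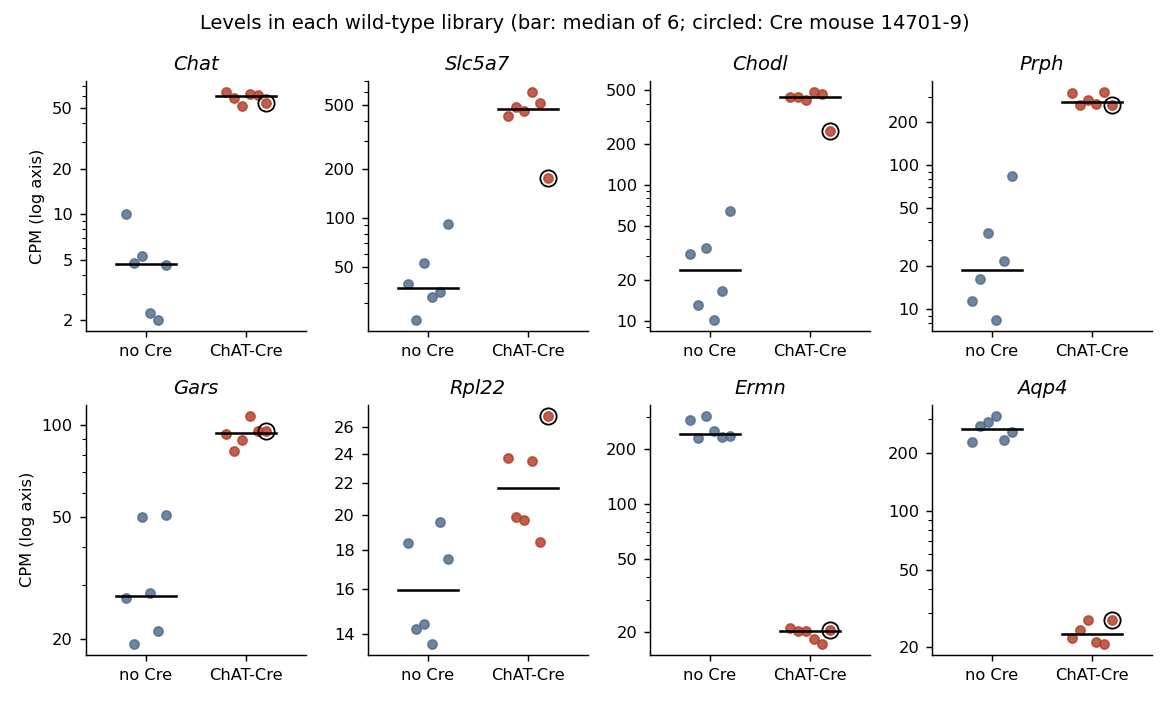
Each point is 1 wild-type library, on a log axis of CPM with its own range in each panel, for the 4 cholinergic markers, Gars, Rpl22, the oligodendrocyte gene Ermn and the astrocyte gene Aqp4. Bars are medians of 6 libraries. The groups are apart for the 4 markers, Gars, Ermn and Aqp4 and overlap for Rpl22, and the circled mouse 14701-9 is lowest with Cre for Slc5a7 and Chodl.

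Rpl22, the gene that carries the tag, stood at 18.4 to 26.9 CPM (median 21.7) with Cre and 13.6 to 19.6 CPM (median 16) without, and its change of 0.41 ± 0.19 was not called (adjusted p = 0.075). Without mice 14702-4 and 14702-6 it was 0.56 and called (adjusted p = 0.018). Gene counts do not separate the tagged exon from the normal one, so this level does not check recombination. Gars, which encodes glycyl-tRNA synthetase, stood at 82.5 to 107 CPM (median 94.4) with Cre and 19.3 to 50.7 CPM (median 27.7) without. Its change was 1.59 ± 0.23 (adjusted p = 3.00e-05), and the groups did not overlap.

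A large part of the transcriptome differed between pulldowns with and without Cre, in both directions. Of 14264 genes tested, 60.6% were called in either direction at an adjusted p under 0.05. Higher calls came to 3955 genes (27.7%) and lower calls to 4682 (32.8%). Against a change of 2-fold, 1520 genes (10.7%) were higher and 2674 (18.7%) lower. All 6 libraries with Cre lay above all 6 without for 2545 genes (17.8%), and below them for 2422 (17%). These shares are the background against which the counts of each gene group are read. The groups were chosen with earlier results of these data known, so their counts are descriptions. The median change over all genes tested was -0.10.

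The direction of small changes depended on the scaling. With raw library totals in place of TMM, the median over all genes moved up by 0.94 to 0.84, 48.3% of genes (6889) were higher and 17.1% (2435) lower. Under all 4 scalings tried, 3895 genes (27.3%) were higher and 2435 (17.1%) lower. A small negative change could therefore turn positive with library totals. Of these 14264 genes, 4248 were higher and 4909 lower without mouse 14701-9, 4837 and 4488 without the 4 libraries that stood apart, and 4791 and 4191 without mice 14702-4 and 14702-6.

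**Figure D2:**
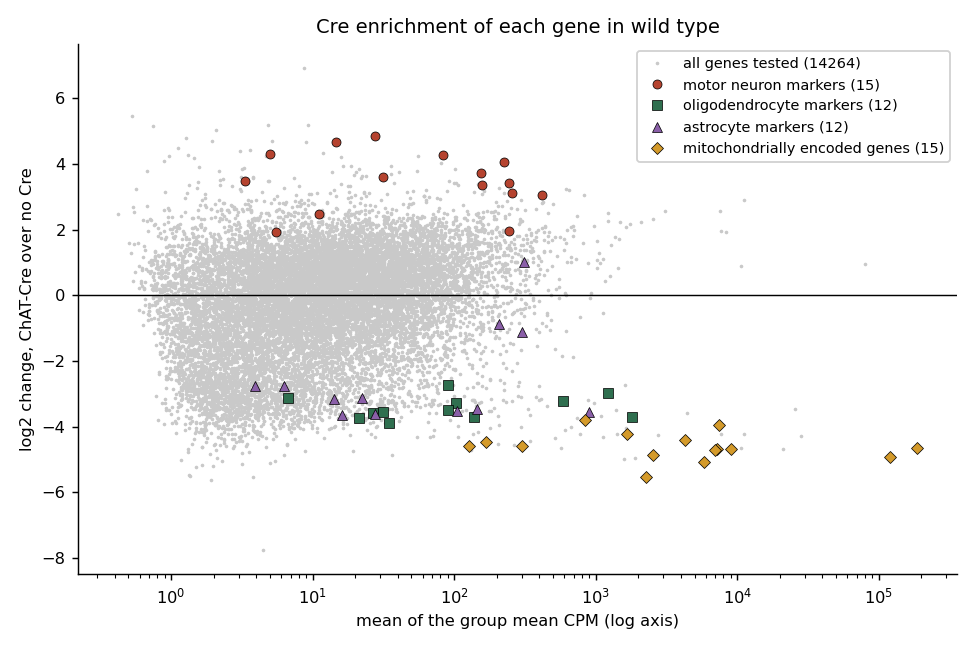
Each grey point is 1 of 14264 genes, with its mean CPM on the horizontal log axis and its log2 change with Cre over without on the vertical axis. The 15 motor neuron markers lie above 0 at every level, the 12 oligodendrocyte markers and the 15 mitochondrially encoded genes lie below, and 1 of the 12 astrocyte markers, S100b, lies above.

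The genes with the largest rises included known motor neuron genes and genes with no such label. Mnx1, the homeobox factor also called Hb9 that fixes motor neuron identity, stood at 7.62 to 11.8 CPM (median 9.38) with Cre and 0.0934 to 1.01 CPM (median 0.376) without, a change of 4.29 ± 0.52. Calcb, which encodes the beta form of calcitonin gene-related peptide, stood at 44.2 to 65.2 CPM (median 52.4) against 0 to 4.97 CPM (median 1.34), a change of 4.84 ± 0.60. Uts2b, which encodes a peptide of the urotensin family, stood at 23.3 to 38.8 CPM (median 26.9) against 0.196 to 2.16 CPM (median 0.837), a change of 4.66 ± 0.38. For these 3 genes every library with Cre lay above every library without.

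Other genes among the largest rises have different known roles. Vdr, the nuclear receptor for vitamin D, stood at 9.67 to 25.8 CPM (median 25.1) against 0.187 to 2.2 CPM (median 1.57), a change of 4.34 ± 0.46 (adjusted p = 1.09e-06). Lgals1, the carbohydrate-binding galectin 1, stood at 84.3 to 126 CPM (median 103) against 1.87 to 18.4 CPM (median 4.07), a change of 4.23 ± 0.53. Slc5a5, the sodium-iodide symporter, stood at 13.7 to 35.6 CPM (median 32.7) against 0.489 to 4.55 CPM (median 0.925), a change of 4.21 ± 0.47. The groups were apart in each case. Trim58, a ubiquitin ligase, changed by 5.04 ± 0.80 and Fam131c by 4.41 ± 0.50. The largest fitted change was that of Srp54a, a signal recognition particle subunit, at 6.92 ± 0.60, with 10.1 to 20.9 CPM (median 18.6) with Cre and 8 counts in all without. Srp54a has near-identical copies, and Srp54b and Srp54c changed by 0.72 ± 0.18 and 1.58 ± 0.22. How reads were divided among the 3 genes is uncertain.

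The rises with the smallest p were larger than 2-fold and their groups did not overlap. Ccdc92 stood at 320 to 347 CPM (median 326) with Cre and 46.9 to 73 CPM (median 55.6) without, a change of 2.55 ± 0.14 (adjusted p = 4.40e-09). Slc25a1, the mitochondrial citrate carrier, stood at 69.98 to 91.7 CPM (median 85.3) against 6.96 to 12.8 CPM (median 9.12), a change of 3.15 ± 0.18 (adjusted p = 7.32e-09). Bag3, the co-chaperone of selective autophagy, stood at 165 to 236 CPM (median 180) against 10.5 to 30.9 CPM (median 17.6), a change of 3.42 ± 0.22. Changes of the other 9 were 2.58 for Pcp4l1, 2.3 for Nkiras1, 2.43 for Sult4a1, 2.84 for Cend1, 2.9 for Caln1, 2.18 for Ppp2r1a, 2.38 for Serpinb6a, 2.15 for Klc1 and 3.23 for Cd24a.

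Of 9 genes for the handling of acetylcholine, 6 were higher with Cre, 2 lower and 1 not called, with a median of 2.14. Slc10a4, a vesicular transporter of cholinergic terminals, stood at 92.4 to 200 CPM (median 166) with Cre and 1.08 to 22 CPM (median 7.08) without, a change of 4.26 ± 0.54. Ache, which breaks acetylcholine down, stood at 62.2 to 85 CPM (median 76.1) against 18.7 to 39.9 CPM (median 23.4), a change of 1.6 ± 0.19, and Prima1, its membrane anchor, changed by 3.08 ± 0.33. Pcyt1b, an enzyme of choline lipid synthesis, changed by 2.14 ± 0.22. The 2 lower genes were the plasma membrane choline transporter Slc44a1 at -1.65 ± 0.19 and butyrylcholinesterase, Bche, at -2.32 ± 0.54. With library totals, Slc44a1 stood at -0.69 and was no longer called. Colq, the collagen tail of the esterase, lay at -0.57 ± 0.60 and was not called.

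The 15 motor neuron markers measured were higher with Cre in 15 of 15 cases under each of the 4 scalings, with a median of 3.47. Their summed level was 2174 to 3813 CPM (median 3556) with Cre and 265 to 793 CPM (median 339) without. Mouse 14701-9 was the lowest with Cre and mouse 14702-6 the highest without. Beside the genes above, Calca changed by 3.72 ± 0.65, osteopontin, Spp1, by 3.12 ± 0.47, Ahnak2 by 3.07 ± 0.25, the protease Mmp9 by 2.47 ± 0.39 and Tns1 by 1.97 ± 0.20. Isl1 had the weakest call, with 6.82 to 11.2 CPM (median 8.67) with Cre, 0 to 6.23 CPM (median 2.22) without and a change of 1.93 ± 0.75 (adjusted p = 0.039). Counts were 14 of 15 with mouse number prefix as a block and in library series 2 alone. The list was chosen with earlier results of these data known, so these counts are not independent support for the enrichment.

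Of 15 transcription factors that set spinal neuron identity in development, 6 were higher, 5 lower and 4 not called. Of all genes 27.7% were higher and 32.8% lower, and the share of lower factors near this is not read as a result. The list median of -0.04 was near 0 and had no stable sign. It was 0.91 with library totals and 0.52 without the 4 libraries that stood apart. The higher genes included Mnx1, Lhx4 (3.77 ± 0.39), Isl2 (3.47 ± 0.69), Isl1 and Bcl6 (2.46 ± 0.18). Lhx4, a partner of the islet factors in motor neuron precursors, stood at 14.6 to 33.7 CPM (median 26.4) with Cre and 0.795 to 4.8 CPM (median 1.39) without. Its groups were apart. The lower genes were Olig2, a factor of motor neuron progenitors and of oligodendrocytes (-3.39 ± 0.40), Ebf2 (-2.22 ± 0.37), Onecut2 (-2.01 ± 0.24), Tshz2 (-1.1 ± 0.36) and Foxp1 (-0.74 ± 0.19). Under all 4 scalings, 3 of the 5 were lower, since Tshz2 and Foxp1 were no longer called with library totals. Lhx3, the embryonic partner of Isl1, lay at -0.04 ± 1.17 and was not called. It was at 6.46 CPM in mouse 14702-4, without Cre, and at 0 to 1.73 CPM in all other libraries. Its change is therefore poorly determined.

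Markers of the motor neuron subtypes differed in their changes. Of 10 alpha motor neuron markers, 8 were higher and 2 lower, with a median of 2.71. Vipr2, a receptor for vasoactive intestinal peptide, stood at 12.3 to 47.6 CPM (median 40.3) with Cre and 0.551 to 5.13 CPM (median 3.22) without, a change of 3.76 ± 0.48. The kinase gene Stk32a changed by 2.94 ± 0.25, the nuclear splicing factor Rbfox3, known as NeuN, by 2.06 ± 0.22 and Sv2b by 2.01 ± 0.21. Sv2a lay at -1.0 ± 0.17 and Kcnq5 at -1.88 ± 0.66, and neither was lower under all 4 scalings. Kcnq5 was also not called without mouse 14701-9, and its groups overlapped.

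Of 10 gamma motor neuron markers, 6 were higher, 0 lower and 4 not called, with a median of 1.48. Esrrg, the orphan receptor that marks gamma motor neurons, stood at 107 to 190 CPM (median 178) with Cre and 53.8 to 79.7 CPM (median 64.2) without, a change of 1.37 ± 0.15. Gfra1, the GDNF co-receptor, stood at 32.2 to 116 CPM (median 97.8) against 15.3 to 28.7 CPM (median 19.3), a change of 2.22 ± 0.23. In both genes the groups were apart, with mouse 14701-9 lowest with Cre. Esrrb (1.77 ± 0.46), Nxph4 (1.59 ± 0.28), Npas1 (2.55 ± 0.74) and Plch1 (1.2 ± 0.29) were the other higher genes. Htr1d, a serotonin receptor of gamma motor neurons, lay at 1.7 ± 0.74 (adjusted p = 0.056). Wnt7a, Creb5 and Htr1f lay between -0.53 and 0.10 and were not called.

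Markers of visceral motor neurons and of cholinergic interneurons were not raised as groups. Of 7 visceral markers tested, 1 was higher, 2 lower and 4 not called, beside 27.7% higher and 32.8% lower of all genes. The share of lower markers is near this and is not read as a result. The visceral median of -0.43 became 0.48 with library totals, and both lower genes were lower under all 4 scalings. Nos1, the nitric oxide synthase of autonomic neurons, stood at 21.2 to 56.1 CPM (median 40.4) with Cre and 24.7 to 58.3 CPM (median 30.5) without, a change of 0.32 ± 0.23 that was not called. Slit3 was the higher gene at 1.04 ± 0.37, and Zeb2 (-2.76 ± 0.20) and Fbn2 (-3.14 ± 0.52) were lower. Zeb2 is also a gene of glia. Of 4 interneuron markers tested, 1 was higher, 1 was lower, and Pax2 (-0.61 ± 0.33) and Mpped2 (-1.02 ± 0.54) were not called. The median of these 4 was -0.81, and 0.20 with library totals. The shares called among so few genes are also not read as a result.

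**Figure D3:**
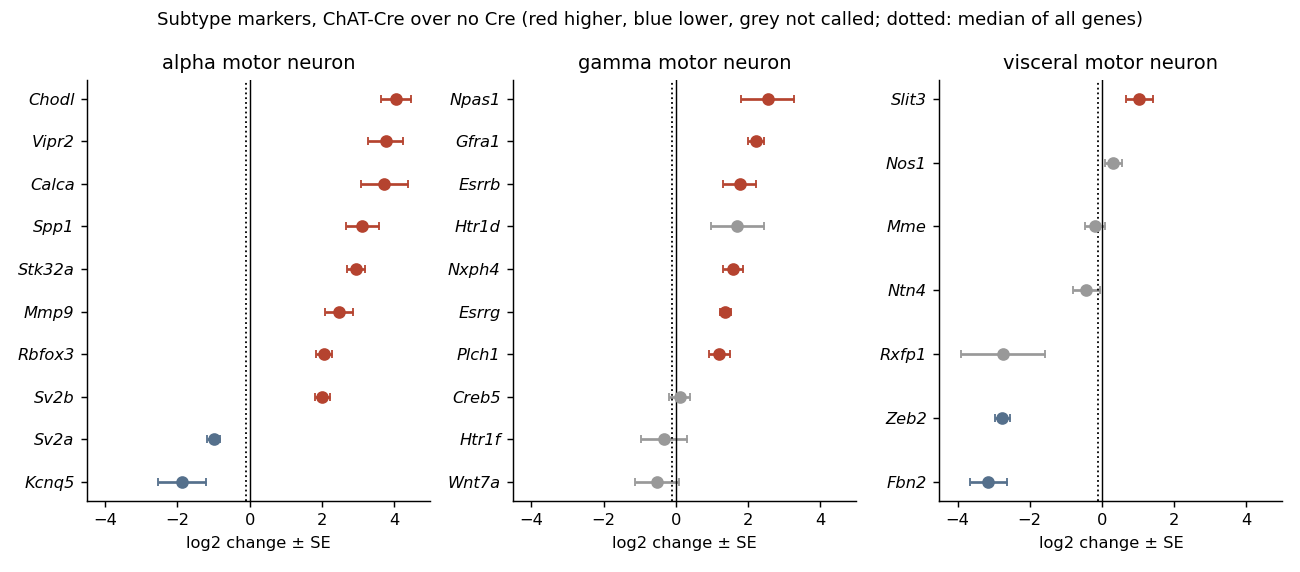
Points are log2 changes with Cre over without, with bars of 1 SE, for each tested marker of alpha, gamma and visceral motor neurons, and the dotted line is the median of all genes. Of the alpha markers 8 of 10 are higher, of the gamma markers 6 of 10, and of the visceral markers 1 of 7.

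Neuropeptide genes held some of the largest changes. Of 21 tested, 13 were higher, 3 lower and 5 not called, with a median of 1.39. Cartpt, the precursor of the CART peptides, stood at 23.3 to 49.8 CPM (median 34.3) with Cre and 1.03 to 3.03 CPM (median 2.53) without, a change of 3.92 ± 0.29. Nts, which encodes neurotensin, stood at 25.5 to 42.5 CPM (median 31.4) against 0.391 to 9.37 CPM (median 3.46), a change of 3.13 ± 0.52. Cck, which encodes cholecystokinin, stood at 39.8 to 61.4 CPM (median 52.9) against 6.26 to 17.4 CPM (median 12.6), a change of 2.16 ± 0.23. Every library with Cre was above every library without for these 3 genes. Uts2, which encodes urotensin, changed by 3.63 ± 0.90. Granins, the acidic proteins of dense-core vesicles, were higher too, with Chga at 2.14 ± 0.17, Chgb at 1.39 ± 0.16, Scg2 at 1.29 ± 0.20 and Vgf at 2.27 ± 0.26. The dorsal horn tachykinins were lower, with Tac1 at -2.3 ± 0.45 and Tac2 at -3.84 ± 0.48. Penk (0.5 ± 0.26), Sst (0.4 ± 0.40) and Pdyn (-1.33 ± 0.80) were not called. Nrn1, at -0.67 ± 0.22, was not lower under all 4 scalings.

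Genes of vesicle release moved in both directions, by paralog. Of 32 tested, 16 were higher, 8 lower and 8 not called, beside 27.7% higher and 32.8% lower of all genes. The list median was 0.85. Vamp1, the vesicle SNARE of the neuromuscular junction, stood at 1838 to 2186 CPM (median 2059) with Cre and 256 to 560 CPM (median 338) without, a change of 2.5 ± 0.19. Its paralog Vamp2 stood at 172 to 322 CPM (median 209) against 137 to 241 CPM (median 163), a change of 0.32 ± 0.19 that was not called. Sncg, the gamma form of synuclein, stood at 133 to 175 CPM (median 145) against 4.3 to 28.3 CPM (median 5.41), a change of 4.02 ± 0.51. Cplx1 changed by 1.99 ± 0.18 and Cplx2 by -0.79 ± 0.16. Sv2b and Sv2c (1.22 ± 0.16) were higher and Sv2a lower. Among the synaptotagmins, Syt4 (1.43 ± 0.19), Syt2 (1.04 ± 0.17) and Syt11 (1.04 ± 0.13) were higher. Syt1 lay at 0.05 ± 0.17 and was not called, and Syt7 lay at -1.3 ± 0.18. Of the 8 lower genes only Unc13b, a priming factor (-2.91 ± 0.28), was lower under all 4 scalings, and Cplx2, Sv2a, Syt7, Syn3, Rims2, Bsn and Unc13a were not called with library totals.

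Of 52 potassium channel genes tested, 17 were higher, 16 lower and 19 not called, with a median of 0.28. These shares are near the 27.7% higher and 32.8% lower of all genes and are not read as a result about the list. The counts became 27 higher and 7 lower with library totals and 22 and 14 without mouse 14701-9. Kcng4, a silent subunit that modifies other channels, stood at 65.1 to 222 CPM (median 204) with Cre and 9.78 to 34.2 CPM (median 14.1) without, a change of 3.43 ± 0.31. The leak channels Kcnk9, TASK-3, and Kcnk3, TASK-1, changed by 2.8 ± 0.31 and 2.48 ± 0.21. For these 3 genes the groups were apart. Among the shared subfamilies, Kcnc4 (1.77 ± 0.19) was higher and Kcnc1 (-0.83 ± 0.15) and Kcnc2 (-0.63 ± 0.17) lower, and Kcnd1 (1.64 ± 0.22) was higher and Kcnd2 (-1.07 ± 0.22) and Kcnd3 (-1.04 ± 0.24) lower. With library totals, Kcnc1 and Kcnc2 had positive changes of 0.14 and 0.31 and were not called. The largest falls were those of the inward rectifiers Kcnj13 (-4.22 ± 0.76), Kcnj16 (-3.83 ± 0.29) and Kcnj10 (-3.68 ± 0.23). Kcnj10, the main potassium channel of astrocytes and oligodendrocytes, stood at 18.8 to 59.2 CPM (median 30.5) with Cre and 320 to 467 CPM (median 366) without. Under all 4 scalings 16 of the 17 were higher and 7 of the 16 lower.

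Of 33 sodium and calcium channel genes tested, 9 were higher, 9 lower and 15 not called, with a median of -0.21. These shares too are near those of all genes, 27.7% and 32.8%, and are not read as a result about the list. With library totals 16 were higher and 5 lower, and the median became 0.74. The auxiliary subunits Cacnb1 (2.01 ± 0.26) and Cacna2d3 (1.75 ± 0.25) passed the test over 2-fold. Of the sodium channel pores, Scn1a, the channel of fast-spiking axons, stood at 148 to 374 CPM (median 318) with Cre and 164 to 206 CPM (median 191) without, a change of 0.7 ± 0.17. Scn8a, the pore of mature axon initial segments, stood at 108 to 348 CPM (median 309) against 222 to 324 CPM (median 276), a change of 0.05 ± 0.20 that was not called. The groups overlapped in both. Scn2a1 (-1.07 ± 0.20), Scn3a (-1.98 ± 0.28) and Scn7a (-2.66 ± 0.38) were lower. The P/Q-type pore Cacna1a lay at -0.44 ± 0.25 and was not called, and the N-type pore Cacna1b was lower at -1.96 ± 0.26. Of the 9 lower genes, 5 were lower under all 4 scalings.

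Receptors for the inputs of motor neurons were also mixed. Of 24 glutamate receptor genes, 6 were higher, 11 lower and 7 not called. Of all genes 27.7% were higher and 32.8% lower, and the share of higher receptors near this is not read as a result. The list median of -0.62 turned to 0.30 with library totals, and 3 of the 11 were lower under all 4 scalings. Grin3b, the NMDA receptor subunit known from motor neurons, stood at 4.69 to 11 CPM (median 7.89) with Cre and 0 to 2.45 CPM (median 0.560) without, a change of 3.15 ± 0.62. The groups were apart, and no other member was higher against 2-fold. The AMPA subunits Gria3 (0.83 ± 0.26) and Gria4 (0.77 ± 0.23) were higher. Gria1 (-1.13 ± 0.20) and Gria2 (-0.91 ± 0.16) were lower, but with library totals their changes were -0.17 and 0.02 and not called.

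Of 19 genes for GABA and glycine receptors, 5 were higher, 6 lower and 8 not called, with a median of 0.04. These shares are near the 27.7% higher and 32.8% lower of all genes and are not read as a result about the list. The adult glycine receptor was higher in both subunits. Glra1 stood at 148 to 237 CPM (median 216) with Cre and 76.5 to 112 CPM (median 94.5) without, a change of 1.2 ± 0.15, and Glrb at 229 to 300 CPM (median 247) against 68.4 to 121 CPM (median 81.5), a change of 1.59 ± 0.15. All 6 libraries with Cre lay above the rest for each. Glra3 (-1.65 ± 0.58), Gabra4 (-2.27 ± 0.53) and Gabrg3 (-1.57 ± 0.31) were lower, and of the 6 lower genes only Gabra4 was lower under all 4 scalings.

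Of 11 acetylcholine receptor genes and modulators, 3 were higher, 3 lower and 5 not called. These shares too are near those of all genes, 27.7% and 32.8%, and are not read as a result about the list. Chrm2, the inhibitory muscarinic receptor, stood at 29.5 to 123 CPM (median 113) with Cre and 22.8 to 38.8 CPM (median 32.4) without, a change of 1.65 ± 0.25, with mouse 14701-9 inside the range without Cre. Lynx1, a membrane protein that damps nicotinic receptors, stood at 288 to 632 CPM (median 570) against 106 to 178 CPM (median 136), a change of 2.0 ± 0.17. Chrna1, the subunit of the muscle receptor, was lower at -2.56 ± 0.57 and remained so under all 4 scalings, unlike Chrna4 and Ly6h. Of 15 receptors for serotonin and noradrenaline, 4 were higher, 1 lower and 10 not called. Of all genes 27.7% were higher and 32.8% lower. The share of higher receptors is near this and is not read as a result about the list. Htr2a, the excitatory serotonin receptor of motor neurons, stood at 11.5 to 41 CPM (median 35.4) with Cre and 2.06 to 4.21 CPM (median 3.63) without, a change of 3.34 ± 0.26. Htr7 (1.14 ± 0.30) was also higher, and Htr2c (-0.72 ± 0.16) was lower but lay at 0.24 and was not called with library totals.

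Of 22 receptors for trophic factors tested, 7 were higher, 9 lower and 6 not called, beside 27.7% and 32.8% of all genes, and the counts are not read as a result about the list. Under all 4 scalings 6 were higher and 7 lower. The median of -0.23 became 0.73 with library totals and 0.29 without the 4 libraries that stood apart. Ret, the signalling receptor for the GDNF family, stood at 109 to 252 CPM (median 225) with Cre and 29.3 to 52.7 CPM (median 32.1) without, a change of 2.56 ± 0.21. Its co-receptors Gfra1 and Gfra4 (1.2 ± 0.32) were higher, and Gfra2 lay at 0.06 ± 0.37 and was not called. Lifr, which takes up the CNTF and LIF signals, changed by 0.97 ± 0.16. Ntrk2, the BDNF receptor, was lower at -1.0 ± 0.14 but lay at -0.04 and was not called with library totals. The largest falls were those of Erbb3 (-3.63 ± 0.37), the endothelial Flt1 (-3.58 ± 0.38) and Kdr (-3.21 ± 0.44), Erbb4 (-3.2 ± 0.24) and Fgfr3 (-3.14 ± 0.32).

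Among 18 secreted trophic and synaptic factors, 6 were higher, 7 lower and 5 not called. All genes had 27.7% higher and 32.8% lower, and the counts are not read as a result about the list. The list median of -0.07 became 0.91 with library totals. Fgf1, a growth factor without a signal peptide, stood at 536 to 1835 CPM (median 1594) with Cre and 151 to 248 CPM (median 180) without, a change of 3.07 ± 0.23. Nrg1, the neuregulin that motor axons offer to Schwann cells, stood at 69.6 to 237 CPM (median 222) against 19.2 to 48.6 CPM (median 29.4), a change of 2.75 ± 0.27. The groups were apart for both. Agrn, the organizer of the neuromuscular junction, went the other way, with 12.2 to 16.9 CPM (median 14.1) against 46.9 to 107 CPM (median 71.5) and a change of -2.44 ± 0.19. Agrn was lower under all 4 scalings, as were Lgi1 (-2.51 ± 0.22) and Igf1 (-2.51 ± 0.32). The counts do not separate the neural splice form of Agrn from the form of other cells.

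The axonal cytoskeleton was higher in most of its genes. Of 23 tested, 16 were higher, 1 lower and 6 not called, with a median of 0.98. The neurofilament subunits Nefl, Nefm and Nefh changed by 2.57 ± 0.25, 2.91 ± 0.35 and 2.22 ± 0.24. Nefh, the heavy subunit, stood at 2978 to 3763 CPM (median 3500) with Cre and 389 to 1429 CPM (median 724) without, and the groups were apart. Stmn2, a tubulin-binding growth protein, stood at 701 to 1384 CPM (median 1227) against 71.7 to 281 CPM (median 115), a change of 3.21 ± 0.29. Its relative Stmn3 changed by 2.48 ± 0.28, Stmn1 lay at -0.15 ± 0.18 and was not called, and Stmn4 was the lower gene at -1.26 ± 0.30, at -0.34 and not called with library totals. Ina (0.09 ± 0.14), the neurofilament partner of central neurons, and the microtubule protein Mapt (-0.00 ± 0.16) were not called.

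Motors of axonal transport were higher in 21 of 29 genes, lower in 2 and not called in 6, with a median of 1.00. Klc1, a kinesin light chain, stood at 438 to 491 CPM (median 475) with Cre and 85.8 to 136 CPM (median 105) without, a change of 2.15 ± 0.15. Dync1li1, a light intermediate chain of dynein, stood at 55.8 to 70.9 CPM (median 63.3) against 9.92 to 19 CPM (median 13), a change of 2.21 ± 0.18. Neither gene overlapped between groups. The light chains and dynactin subunits Klc2 (1.96 ± 0.21), Dctn3 (2.79 ± 0.48) and Dctn2 (1.79 ± 0.29) were higher, whereas the heavy chain Dync1h1 (0.25 ± 0.17) and the kinesins Kif1a (0.08 ± 0.15) and Kif5a (0.08 ± 0.18) were not called. Kif21b was lower at -1.88 ± 0.21, and Kif5b, the kinesin of most cell types, was lower at -0.84 ± 0.15 with TMM but lay at 0.11 and was not called with library totals.

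Genes linked to motor neuron disease and to Charcot-Marie-Tooth neuropathy were followed as lists. Of 31 genes linked to amyotrophic lateral sclerosis or spinal muscular atrophy, 16 were higher, 7 lower and 8 not called, with a median of 1.13. All genes had 27.7% higher and 32.8% lower. Sod1, superoxide dismutase, stood at 288 to 409 CPM (median 349) with Cre and 37.5 to 80.02 CPM (median 46.2) without, a change of 2.72 ± 0.21. Vcp (1.92 ± 0.16), Sqstm1 (1.91 ± 0.15) and the mouse counterpart of C9orf72 (1.5 ± 0.29) were higher. Among genes of RNA-binding proteins, Tia1 was lower at -3.72 ± 0.26, while Tardbp lay at -0.09 ± 0.13 and was not called. Of the 7 lower genes, 3 were lower under all 4 scalings, among them Tia1 and Spg11 (-1.82 ± 0.28).

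Of 32 genes of Charcot-Marie-Tooth neuropathy, 13 were higher, 11 lower and 8 not called, with a median of 0.25. Of all genes 27.7% were higher and 32.8% lower, and the share of lower neuropathy genes near this is not read as a result. The small heat shock proteins Hspb1 and Hspb8 changed by 3.77 ± 0.61 and 3.37 ± 0.26. Hspb1 stood at 79.3 to 116 CPM (median 100) with Cre and 1.56 to 24.9 CPM (median 4.76) without, with no overlap. The tRNA synthetases Hars (1.98 ± 0.22), Aars (1.94 ± 0.20), Gars and Yars (1.0 ± 0.22) were higher, and Mars (0.24 ± 0.32) was not called. Under all 4 scalings 12 were higher and 10 lower. The lower genes included the myelin gap junction gene Gjb1 (-3.21 ± 0.46) and periaxin, Prx (-2.64 ± 0.55). Prx stood at 2.24 to 13.4 CPM (median 5.93) with Cre and 19.4 to 78.1 CPM (median 30.5) without, and its groups did not overlap.

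Nuclear genes of the respiratory chain were higher in 68 of 69 cases, with 1 not called and a median of 1.72, and 68 were higher under all 4 scalings. Atp5d, a subunit of ATP synthase, stood at 105 to 157 CPM (median 138) with Cre and 12.6 to 34.2 CPM (median 17.7) without, a change of 2.67 ± 0.24. Cox7b, a subunit of cytochrome oxidase, stood at 175 to 223 CPM (median 183) against 26.9 to 54.8 CPM (median 36.6), a change of 2.34 ± 0.20. The groups were apart for both. Transcripts of the mitochondrial genome went the other way, lower in 15 of 15 cases with a median of -4.65. mt-Co1, the core subunit of the same oxidase, stood at 463 to 3378 CPM (median 772) with Cre and 9768 to 18130 CPM (median 13870) without, a change of -3.94 ± 0.45. The highest summed level of these transcripts with Cre belonged to mouse 14701-9. Mitochondrial transcripts are read by the ribosomes of the mitochondrion, which do not contain Rpl22.

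Glycolytic enzymes were higher in 13 of 16 cases, lower in 1 and not called in 2, with a median of 1.35. Eno2, the enolase of neurons, changed by 1.79 ± 0.17, and the broadly expressed Eno1 lay at 0.33 ± 0.19 and was not called. Aldoa changed by 2.33 ± 0.22, and Aldoc, the aldolase of astrocytes, by -0.87 ± 0.20, or 0.06 and not called with library totals. Genes of cytosolic ribosomal proteins were higher in 58 of 76 cases and lower in 0, with a median of 0.94. Rpl36 changed by 2.13 ± 0.21, and 18 members, among them Rpl5 (-0.4 ± 0.24) and Rps3a1 (0.27 ± 0.15), were not called. These genes have many near-identical pseudogene copies, so how their reads were divided is uncertain.

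Markers of glia and vessels were lower with Cre. The 12 oligodendrocyte markers were lower in 12 of 12 cases under each of the 4 scalings, with a median of -3.53. Ermn, a cytoskeletal protein of myelinating cells, had the smallest p of the 14264 genes, with 17.3 to 21.1 CPM (median 20.2) against 231 to 302 CPM (median 242) and a change of -3.71 ± 0.15 (adjusted p = 2.72e-10). Its groups did not overlap. Precursor markers were lower in 8 of 9 cases under each of the 4 scalings, with a median of -2.76, and Pdgfra, which defines these cells, changed by -2.66 ± 0.35.

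Of 12 astrocyte markers, 11 were lower and 1 higher, with a median of -3.15. Aqp4, the water channel of astrocyte endfeet, stood at 20.9 to 27.6 CPM (median 23.5) with Cre and 226 to 309 CPM (median 264) without, a change of -3.47 ± 0.15. Slc1a2 and Slc1a3, the glutamate transporters, changed by -3.56 ± 0.21 and -3.16 ± 0.31. S100b was the exception, with 366 to 516 CPM (median 404) with Cre, 156 to 237 CPM (median 212) without and a change of 1.01 ± 0.15. Its groups were apart, and it was higher under all 4 scalings. Glul (-1.12 ± 0.17) and Aldoc were the 2 lower genes that were not called with library totals.

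All 8 microglia markers tested were lower, with a median of -3.31, and 7 of them under all 4 scalings. P2ry12, the purinergic receptor that defines resting microglia, stood at 0.0229 to 0.479 CPM (median 0.152) with Cre and 3.23 to 5.98 CPM (median 4.19) without, a change of -4.43 ± 0.62. Of 12 endothelial and mural markers, 11 were lower, 10 of them under all 4 scalings, and 1 higher, with a median of -3.03. Flt1, the endothelial VEGF receptor, changed by -3.58 ± 0.38, and Slco1a4, an organic anion carrier of brain vessels, by -4.02 ± 0.26. Itm2a was the higher gene, with 21.1 to 47.9 CPM (median 43.8) with Cre and 3.13 to 23.4 CPM (median 8.63) without and a change of 2.11 ± 0.37, and its groups overlapped. Blood cell markers were lower in 7 of 7 cases, and in 5 of them under all 4 scalings. Their haemoglobin genes are near-identical copies. Of 6 skeletal muscle genes, 0 were called by the quasi-likelihood test, with changes from -4.03 to -3.17 and adjusted p from 0.10 to 0.14. Without mouse 14701-9, which had the highest muscle level with Cre, 6 of 6 were lower.

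**Figure D4:**
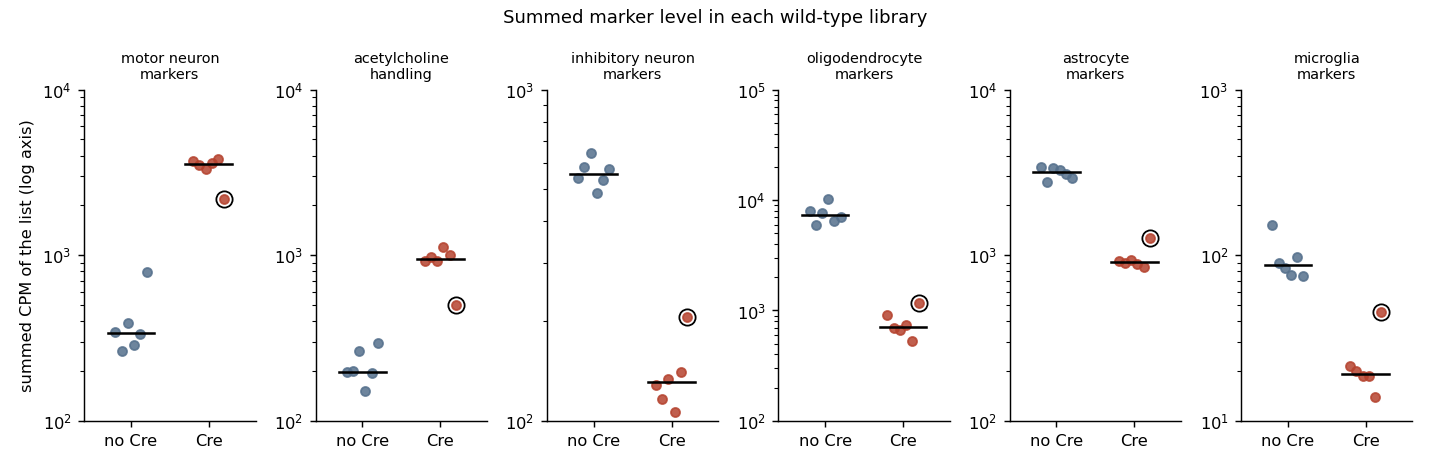
Each point is the summed CPM of a marker list in 1 wild-type library, on a log axis with its own range in each panel, and bars are medians of 6. The groups are apart in every panel, and the circled mouse 14701-9 has less of the motor neuron and acetylcholine lists and more of the inhibitory neuron, oligodendrocyte, astrocyte and microglia lists than the other 5 libraries with Cre.

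The summed level of oligodendrocyte markers was 533 to 1169 CPM (median 715) with Cre and 5931 to 10130 CPM (median 7340) without. Astrocyte markers summed to 845 to 1267 CPM (median 914) and 2781 to 3418 CPM (median 3185), and microglia markers to 14 to 45.5 CPM (median 19.3) and 75.5 to 152 CPM (median 86.8). None of the oligodendrocyte or astrocyte genes was at 0 in any library with Cre. Mouse 14701-9 was the highest with Cre in each of these sums and the lowest in the sum of motor neuron markers. What part these levels had in the other changes of that library was not tested.

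Markers of other spinal neurons were also lower in part. Of 9 inhibitory neuron markers, 6 were lower, 0 higher and 3 not called, with a median of -1.43. Slc6a5, the glycine transporter of inhibitory terminals, stood at 32.7 to 61.2 CPM (median 42.3) with Cre and 229 to 352 CPM (median 295) without, a change of -2.82 ± 0.17. Gad1 and Gad2, which make GABA, changed by -1.44 ± 0.21 and -1.39 ± 0.17. Under all 4 scalings, 3 of the 6 were lower, and Gad1 and Gad2 were not among them. Of 6 excitatory markers, 3 were lower, 1 higher and 2 not called, beside 32.8% lower and 27.7% higher of all genes. Of the 3 lower, 2 were lower under all 4 scalings. Slc17a6, the vesicular glutamate transporter of spinal excitatory neurons, stood at 23.1 to 32.5 CPM (median 26.7) against 76.3 to 133 CPM (median 83.4), a change of -1.76 ± 0.17. Sensory ganglion genes had a median of -0.91, which was 0.90 without the 4 libraries that stood apart and 0.46 in library series 2 alone. Of these 4 genes, Ret was higher and the sodium channels Scn10a (-2.0 ± 1.12) and Scn11a (-2.95 ± 1.31) and the ATP receptor P2rx3 (0.18 ± 0.85) were not called.

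Of 11 perineuronal net and matrix genes tested, 3 were higher, 6 lower and 2 not called, with a median of -1.66. The share of higher members was near the 27.7% of all genes (32.8% lower) and is not read as a result. Sema3a, a guidance factor held in the nets, stood at 49.3 to 106 CPM (median 89.2) with Cre and 6.95 to 19.1 CPM (median 13.4) without, a change of 2.78 ± 0.23. Hapln4 (1.57 ± 0.19) and Tnr (1.18 ± 0.21) were higher, and Acan, the main net proteoglycan, lay at 0.64 ± 0.40 and was not called. Hapln2 (-3.43 ± 0.36), Vcan (-2.73 ± 0.24), Hapln1 (-2.67 ± 0.28), Bcan (-2.15 ± 0.25) and Ncan (-1.87 ± 0.19) were lower under all 4 scalings.

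Of 21 calcium-binding and buffering genes, 10 were higher, 5 lower and 6 not called, with a median of 0.34. Under all 4 scalings 2 of the 5 were lower. Among all genes 27.7% were higher and 32.8% lower, and the count of lower members is not read as a result. Calb2, or calretinin, changed by 1.97 ± 0.25 and Hpcal1 by 2.53 ± 0.18, while calbindin, Calb1, stood at 0.479 to 2.12 CPM (median 1.03) with Cre and 6.59 to 13.8 CPM (median 7.99) without, a change of -2.99 ± 0.41. None of these 3 genes had overlapping groups. Markers of fibroblasts, meninges and Schwann cells were lower in 7 of 10 cases under each of the 4 scalings. With TMM 0 of them were higher, and with library totals 1 was. The 3 ependymal markers were not called with TMM, and 1 was higher with library totals.

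Hox genes, which keep a record of position along the cord, showed 4 higher, 9 lower and 14 not called of 27 tested. Of all genes 27.7% were higher and 32.8% lower. The share of lower Hox genes is near this and is not read as a result about the list. Hoxd9 (1.62 ± 0.30), Hoxa7 (1.15 ± 0.21), Hoxc10 (1.11 ± 0.25) and Hoxc8 (0.74 ± 0.19) were higher, and their groups did not overlap. Hoxc10, a gene of lumbar motor neurons, stood at 71.5 to 90.3 CPM (median 84) with Cre and 17.2 to 64.9 CPM (median 41.5) without. The lower genes included Hoxd3 (-2.61 ± 0.60), Hoxb4 (-2.09 ± 0.42) and Hoxa3 (-1.67 ± 0.44), and 2 of the 9 were lower under all 4 scalings. The median of -0.53 became 0.39 with library totals.

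Noncoding RNAs were lower as a class. Of 284 genes annotated as lincRNA, 13 were higher and 174 lower, and of 266 annotated as antisense, 10 were higher and 166 lower. Protein-coding genes had 3835 higher and 4012 lower of 13039. Since the sources do not state whether counting used strand, antisense genes cannot be told from their partners. Malat1, a nuclear RNA, stood at 2439 to 13540 CPM (median 3769) with Cre and 31600 to 60230 CPM (median 46120) without, a change of -3.47 ± 0.36. Meg3 stood at 422 to 1899 CPM (median 623) against 6959 to 9797 CPM (median 7772), a change of -3.57 ± 0.31. Among 14 named long noncoding RNAs, 12 were lower and 2, Airn and Pantr1, were not called, with a median of -3.40, and 11 were lower under all 4 scalings. The groups were apart for Malat1 and Meg3, and mouse 14701-9 had the highest sum of these RNAs with Cre.

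Mitochondrially encoded genes were left out of the ranking of falls, although theirs were as large, with mt-Nd6 at -5.54 ± 0.99 and mt-Nd2 at -5.08 ± 1.06. Among the other genes, the largest falls included genes with few counts or uneven levels. Fcgr1, an Fc receptor of myeloid cells, stood at 0 to 0.287 CPM (median 0.198) with Cre and 1.1 to 16.9 CPM (median 5.64) without, a change of -5.53 ± 0.78. Zic2, a dorsal horn transcription factor, stood at 0.0229 to 0.479 CPM (median 0.174) against 2.74 to 6.72 CPM (median 4.39), a change of -4.51 ± 0.70. Nid2, a basement membrane protein, stood at 0.124 to 0.657 CPM (median 0.279) against 4.2 to 9.27 CPM (median 5.97), a change of -4.58 ± 0.53. These 3 genes had no overlap. Hsf2 stood at 26.2 to 343 CPM (median 124) with Cre and 14.6 to 9854 CPM (median 3515) without, a change of -4.96 ± 1.46, and its groups overlapped. It divided the libraries without Cre as described above, with 44.8 CPM in mouse 14702-4 and 14.6 CPM in mouse 14702-6, below most libraries with Cre, and 2668 to 9854 CPM in the other 4. Without these 2 mice its change was -5.33. Gpr112 (-5.05 ± 1.86, adjusted p = 0.037) and Psg29 (-4.8 ± 1.57, adjusted p = 0.019) lost their calls under several alternatives. Rad9b, Efs, Atp13a4, Mndal, Adamts12 and Col15a1 changed by -5.12 to -4.53. Of the falls with the smallest p, Slc4a4, the bicarbonate transporter of astrocytes, changed by -2.79 ± 0.14, Qk, the RNA-binding protein of myelinating glia, by -2.75 ± 0.14, and Rock1 by -3.08 ± 0.17.

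The libraries in the fit moved the counts of several groups. Without mouse 14701-9, motor neuron disease genes had 18 higher in place of 16, and every list apart from these, the potassium channels and the muscle genes changed by at most 1 gene in a direction. Without the 4 libraries that stood apart, 67 cytosolic ribosomal protein genes were higher in place of 58, 20 motor neuron disease genes in place of 16, 21 potassium channels in place of 17, 19 vesicle genes in place of 16, 15 glycolysis enzymes in place of 13 and 6 Hox genes in place of 4. Higher calls also went to 7 for GABA and glycine receptors (lower to 4), 6 for serotonin and noradrenaline receptors and 5 for acetylcholine receptors, and lower calls to 5 for secreted factors and 2 for muscle genes.

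Without mice 14702-4 and 14702-6, 71 cytosolic ribosomal protein genes were higher in place of 58, 23 transport motors in place of 21, 21 potassium channels in place of 17 and 19 motor neuron disease genes in place of 16. Higher calls went to 7 for GABA and glycine receptors (lower to 4) and 6 for serotonin and noradrenaline receptors. Lower calls went from 9 to 6 for Hox genes, from 5 to 3 for calcium-binding genes and from 7 to 9 for markers of fibroblasts, meninges and Schwann cells. The remaining lists changed by at most 1 gene in a direction in this fit and in the one without the 4 libraries. All 15 motor neuron markers were higher, and all 12 oligodendrocyte markers lower, in each of these 3 fits. The 4 libraries had been picked partly by motor neuron marker levels, so their removal is no separate support for the marker counts.

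**Figure D5:**
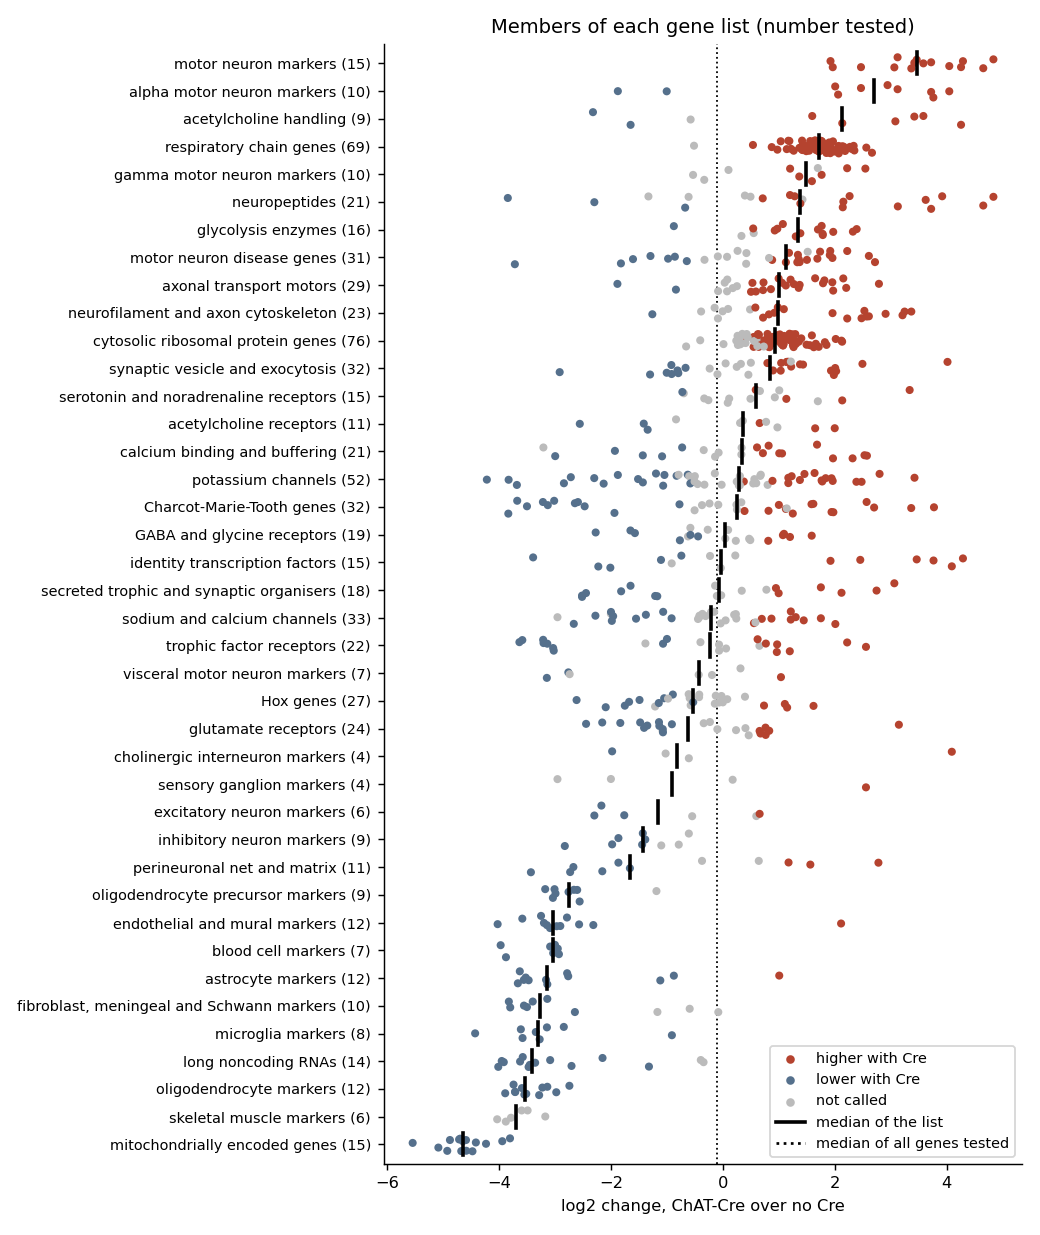
Each row is a gene list with at least 4 tested members, ordered by the median log2 change with Cre over without (black bar), and each point is 1 gene. Motor neuron markers have the highest median at 3.47 and mitochondrially encoded genes the lowest at -4.65, beside -0.10 for all genes (dotted line). The lists were chosen with earlier results of these data known, so their order is a description.

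On a scale per transcript length, synaptic and axonal genes led the transcripts with Cre, with mitochondrial and predicted genes left out. Mean TPM, as deposited, was 20810 ± 7807 (SD, n = 6) for Snap25, the SNARE of the plasma membrane, 13800 ± 2684 for Nefm, 11590 ± 2729 for Calm2 and 9708 ± 3793 for Nefl. Lars2 followed at 7299 ± 3025, but it ranged over 6948 to 48780 CPM (median 9285) with Cre, highest in mouse 14701-9, and its change of 0.88 ± 0.48 was not called. Malat1 was at 7172 ± 1955, Atp5b at 4072 ± 1735, Gapdh at 3951 ± 1381, Hspa8 at 3417 ± 956, Tecr at 2937 ± 862 and Tuba1b at 2785 ± 417. On the same scale Chat was at 51.8 ± 15.8, Slc5a7 at 220 ± 96.8, Chodl at 432 ± 162 and Prph at 418 ± 132. TPM was not rescaled, so the share taken by mitochondrial and ribosomal RNA in each library enters it.

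The same enrichment was measured in Gars C201R mice, in separate animals with their own controls. Over 13820 genes tested in both genotypes, 86.1% of the 3925 genes higher in wild type were also higher in C201R, which is 77.7% of the 4353 higher there. Of 4524 genes lower in wild type, 72.9% were lower in C201R, or 91.2% of its 3614, and 14 genes were called in opposite directions. Across these genes the log2 changes had a Pearson correlation of 0.916, as a description, since genes are not independent replicates. Chat changed by 5.09 ± 0.34 in C201R, Slc5a7 by 4.12 ± 0.22, Chodl by 5.2 ± 0.30 and Prph by 4.86 ± 0.23. The difference of the enrichment between genotypes was 1.47 ± 0.45 for Chat (adjusted p = 0.26) and was not called for any of the 4. It was called for 21 of 16109 genes (0.13%). Of the genes named here only Srp54a was among them, with a change in C201R of 2.56 ± 0.64 and a difference of -4.57 ± 0.93 (adjusted p = 0.038).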

How the data were processed

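RNA from anti-HA pulldowns of mouse spinal cord was sequenced, and the 12 wild-type libraries were used. The values the authors deposited are expected counts for each gene. Per the submitters' processing notes, Bowtie2 2.2.0 and RSEM 1.2.12 were used. The same files also hold deposited TPM, counts per transcript length scaled within each library. Genome build, annotation and strand setting are not given in the sources used here. Each file lists 38924 genes. Expected counts were rounded to whole numbers before testing.

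After filterByExpr and TMM scaling, Cre was tested in edgeR 4.0.16 (R 4.3.3), with library series as a second term, using glmQLFit with robust = TRUE and glmQLFTest. Library series are separate runs of library numbers that the labels do not explain. Series 1 holds 2 libraries with Cre and 1 without. A gene is called where the Benjamini-Hochberg value over all genes tested is under 0.05. SE was obtained as the log2 change over the root of F. Changes over 2-fold were tested with glmTreat. The difference between genotypes is the interaction of Cre and genotype in all 24 libraries. Each library has a mouse number of its own, and none of the 276 pairs of the 24 libraries agreed within counting noise (lowest chi-square per gene 11.3).

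Members and the 41 gene lists were chosen with earlier results of these data known. Genes were named by rank, by list and as fixed names. Ranks took the 12 largest changes and the 12 smallest p in each direction and the 12 highest TPM among genes of at least 2 CPM, leaving out predicted genes, pseudogenes, small RNAs, sex-linked markers and mitochondrially encoded genes. The last were not among the exceptions as first written. Lists gave up to 6 called members in each direction, by p, and the 4 most abundant members not called. Other members were picked after their values were seen, to describe a list or set paralogs side by side. Some members that the rule names are not reported here. The vesicular acetylcholine transporter is not analysed here. On simulated counts for 14264 genes, of which 200 were changed, the wild-type fit recovered 48% of those changed 2-fold and 100% of those changed 4-fold. Of its calls 4.52% were false. The simulation gave all genes the same dispersion and changed only genes above a minimum level. It held no library that stood apart and no effect of library series. In the measured libraries 60.6% of genes were called, so these rates do not carry over to that fit. Alternatives were other scalings, filters, terms and subsets, DESeq2 1.42.0 and limma-voom (limma 3.58.1).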

Additional observations from a re-analysis of the deposited data

Results flagged for a closer look

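Dixon's criterion was applied to 32 sets of 6 libraries, and in 10 sets it picked out 1 library. Chance does so in about 1 in 20 for a single set. The sets hold related measures of the same libraries, so their number is not weighed against that rate. Of the 10 sets, 6 belonged to mouse 14701-9 among the libraries with Cre. Its mitochondrial share was 17.1%, against 1.24 to 3.67% in the others, and its Gm26924 share 30.8%, against 7.45 to 11.9%. Chodl was at 252 CPM there, against 427 to 484 CPM, and the motor neuron markers summed to 2174 CPM, against 3338 to 3813 CPM. Astrocyte markers summed to 1267 CPM, against 845 to 940 CPM, and microglia markers to 45.5 CPM, against 14 to 21.5 CPM.

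Among libraries without Cre, mouse 14702-6 had Prph at 83.6 CPM, against 8.41 to 34.0 CPM, and motor neuron markers at 793 CPM, against 265 to 391 CPM. Mouse 14702-5 had a total of 9.14 M expected counts (M is 1000000), against 12.6 to 13.4 M. In mouse 14004-4 microglia markers summed to 152 CPM, against 75.5 to 98.2 CPM.

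Srp54a differed between genotypes, with an enrichment in C201R minus wild type of -4.57 on the log2 scale by the interaction test. Its near-identical copies leave the division of its reads uncertain.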

How the results depend on the processing

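As designed, 8637 genes were called, 3955 higher and 4682 lower, and 4194 over 2-fold. Other filters and terms, RLE scaling, DESeq2 and limma-voom kept the total within 1.5 times of this. Leaving out each library in turn gave 7912 to 9378 calls, and 3625 to 5034 over 2-fold. With library totals 6889 were higher and 2435 lower, and over 2-fold 4345 and 1289. Using the prefix of the mouse number as a replicate block, 6116 genes were called and 2337 over 2-fold, 908 higher and 1429 lower. Prefixes 14002 and 14703 hold libraries with Cre only. Without the 4 libraries that stood apart, chosen after seeing the data, 9924 were called and 2550 were higher over 2-fold. Without the 2 no Cre libraries 14702-4 and 14702-6, also chosen after seeing the data, 9610 were called and 4852 over 2-fold. For the difference between genotypes, library totals gave 1 gene, the fit without library series 17 and the fit without mice 14003-1 and 14701-9 43. The cause of these shifts was not tested.

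Of 722 refits of 29 single genes, 697 kept direction and call, 17 lost the call (Gpr112, Psg29, Hsf2 and Efs), 8 gained it (Rpl22) and 0 reversed. Of 1025 refits of 41 list medians, 46 in 11 lists had another sign, most of them in lists near 0. A median is counted as reversed where its size as designed exceeded the median SE of its genes, which left 4, each with library totals: visceral motor neuron markers at 0.48, cholinergic interneuron markers at 0.20, glutamate receptors at 0.30 and Hox genes at 0.39. By the same measure of error 77 medians moved beyond it, 34 with library totals, 14 without the 4 libraries and 29 in other refits. DESeq2 and limma-voom were not run against 2-fold.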
